A study of Mus musculus with 12 samples.

Results

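The histone genes of primary mouse brain endothelial cells (BECs) were taken by symbol as every gene named as an H1, H2A, H2B, H3 or H4 gene in the 2 deposited expression tables. There were 78 members among 32419 genes, of which 76 were listed in the normoxia table, 75 in the deprivation table and 73 in both. Replication-dependent genes made up 60 of them, with 6 of family H1, 16 of H2A, 14 of H2B, 12 of H3 and 12 of H4. The H1 count includes the testis gene H1f6. The other 18 members were taken as variants by their current symbols and held 13 further histone genes, 4 pseudogenes and the antisense gene H3f3aos. Among the 13 are H2bu2 and H4f16, whose older symbols, Hist3h2ba and Hist4h4, are of the replication-dependent kind. Both were below 1 RPKM in every library. BECs came from 8-week-old C57BL/6 mice that were wild type (Cort+/+) or lacked cortistatin (Cort-/-), a neuropeptide, and each replicate was pooled from 3 mice of a genotype. Cultures were kept for 24 h under normoxia and normoglycaemia (NX/NG, 21% O2 and 5.5 mM glucose) or were exposed to 4 h of oxygen-glucose deprivation (1% O2, without glucose or serum) and 20 h of reoxygenation (OGD-R). The labels also name an ischemic stroke model as the disease state of all samples, whereas their protocol describes cell cultures. Of 12 samples listed, 10 were used, 3 of Cort+/+ and 2 of Cort-/- in each environment. Each sample is a pool of cultured cells from brain microvessels, so a change in 1 cell type cannot be separated from a change in the mixture.

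Histones package DNA into nucleosomes, in which DNA wraps around a core of H2A, H2B, H3 and H4, while the linker histone H1 binds where DNA enters and leaves the core. Replication-dependent histone genes lie in clusters, are transcribed mainly in S phase and usually give an mRNA without a poly(A) tail that ends just after a conserved stem-loop, to which the stem-loop binding protein Slbp attaches. Variant genes such as those of H3.3, H2A.Z and H1.0 are expressed throughout the cell cycle or in resting cells from polyadenylated mRNAs, and some replication-dependent genes can also give a polyadenylated mRNA.

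Reads on genes, as recovered from RPKM, totalled 12386048 to 12390428 per library. The study gives a higher mean number of sequenced reads, so these totals may not be the sequencing depth. Why they are nearly equal is not given in the sources used here. The labels and the study's methods name different stranded mRNA kits, both of which select poly(A) RNA, and which kit made which library is not given in the sources used here. A pair of OGD-R libraries, replicate 1 of Cort+/+ and replicate 3 of Cort-/-, held few reads of the 18S ribosomal RNA gene Rn18s-rs5, 0.0775% and 0.0951% against 7.64% to 15.8% elsewhere. The study's heatmaps leave out the first of them. Another 19 transcripts known to lack a poly(A) tail summed to 55 and 63 reads in these 2 and to 1702 to 3909 reads in each of the other 8. The 2 are called the low-rRNA libraries from here on. Cort itself had 0 to 2 recovered reads per library and 0 in all Cort-/- libraries, a count at which it hardly checks the genotypes. Levels are in RPKM, reads scaled by the authors to gene length and an adjusted library size. At nearly equal totals, 1 read per kb stood for 0.0728 and 0.0733 RPKM in the low-rRNA libraries and for 0.0761 to 0.0900 RPKM elsewhere. Endothelial markers summed to 999 to 1432 RPKM and smooth muscle markers to 1055 to 1815 RPKM. Markers of pericytes, microglia, astrocytes, neurons and oligodendrocytes each summed to at most 24.4 RPKM, and those of choroid plexus and epithelium to 1.75 to 50.4 RPKM. Fibroblast markers differed between groups, at 164 to 235 RPKM in Cort+/+ and 83.9 and 100.1 RPKM in Cort-/- BECs under NX/NG, and at 181 to 289 RPKM and 170 and 214 RPKM under OGD-R. In bulk samples, fewer cells of a type and less RNA per cell cannot be told apart.

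Of the replication-dependent members, 49 lay within chr13:21715763-23764406 and 10 within chr3:96219865-96270132 of GRCm38 (GENCODE vM21, matched by symbol). The 3′ stem-loop was searched on the transcript strand as a 16-base pattern, GG, any 2 bases, CTTTT, any base, AG, any 2 bases and CC. It was found in 40 of the 59 members with an annotated transcript, in 6 distinct forms, against 89 of all 55450 genes searched (0.161%). A match describes the letters only. Of the 19 members without a match, 9 were annotated no further than the stop codon, so their ends were not in view. The members below are those whose levels the comparisons turn on and which hold the pattern, plus the variant H2ax. Transcripts of H2ax and of H2bu2 and H4f16, which were also counted as variants, hold it too. Capitals mark the stem-loop.
H1f2: aaaaGGCTCTTTTCAGAGCCacca
H2ac4: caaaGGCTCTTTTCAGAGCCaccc
H2bc3: caaaGGCTCTTTTAAGAGCCaccc
H3c15: caaaGGCTCTTTTCAGAGCCacca
H4c6: caaaGGCCCTTTTCAGGGCCaccc
H4c8: caaaGGCCCTTTTCAGGGCCgccc
H4c9: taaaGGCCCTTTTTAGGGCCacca
H2ax: caaaGGCCCTTTTAAGGGCCacca
How far the annotated transcript runs past the stem-loop differed between them. It ended 11 bases after it in H2ac4, 23 in H2bc3, 33 in H4c6 and 46 in H4c8, but 330 bases after it in H4c9, 377 in H3c15, 840 in H1f2 and 822 in H2ax. In 21 replication-dependent members, every transcript with the stem-loop was short, ending at most 100 bases past it. Another 19 had a transcript that ran more than 100 bases past the stem-loop. H2bc22, among the 21, also has an annotated transcript without the stem-loop. H2bc4 and H2bc21, both core H2B genes, held no match.

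H1f2 lies at chr13:23738808-23740367 on the plus strand, H2ac4 at chr13:23751126-23751598 on the plus strand, H3c15 at chr3:96238108-96239127 on the minus strand, H4c6 at chr13:23551258-23551648 on the minus strand and H4c9 at chr13:22040636-22041362 on the minus strand. Histone genes of a family are near copies of each other. The median replication-dependent member shared 54.5% of its 40-base words with other genes, and 52 of 59 shared more than 10%. H1f2 shared 9.80% and H2bc21 0.775%, whereas H4c9 shared 31.8%, H4c6 46.9%, H2ac4 60.1%, H3c15 63.9%, H2bc15 87.7% and H3c14 100%. Counts of the latter kind depend on how reads with several origins were assigned, which is not given in the sources used here.

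Most replication-dependent genes were near the detection limit of the recovered read counts. At most 3 reads were seen in every library for 11 of 60 replication-dependent and 5 of 18 variant members, and at most 10 reads for 35 and 9. Members with a mean of at least 1 RPKM over the 10 libraries, on a scale common to both tables, are called expressed. They numbered 19 of 60 replication-dependent members and 8 of 18 variants, beside 13788 of the 27321 genes in both tables.

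H2bc4 and H1f2 carried most of the replication-dependent RNA. H2bc4, a core H2B gene, was at 31.6, 32.8 and 35.7 RPKM in the Cort+/+ and 35.4 and 32.8 RPKM in the Cort-/- NX/NG libraries, and at 32.3, 36.4 and 34.5 RPKM in the Cort+/+ and 29.0 and 33.5 RPKM in the Cort-/- OGD-R libraries. H1f2, a linker histone, stood at 29.8, 26.4 and 32.1 RPKM and at 29.8 and 27.5 RPKM under NX/NG, and at 23.8, 25.1 and 22.5 RPKM and at 21.3 and 20.7 RPKM under OGD-R, in the same order. Together they made up 49.8% to 55.3% of the summed RPKM of replication-dependent genes in 8 libraries and 68.7% and 66.9% in the low-rRNA libraries. The H4 genes H4c8 (2.32 to 7.38 RPKM) and H4c9 (3.22 to 5.16 RPKM) came next. No other replication-dependent member exceeded 3.51 RPKM in any library.

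Summed over all 60 members, replication-dependent genes reached 120.8, 111.3 and 123.6 RPKM in Cort+/+ and 125.6 and 109.6 RPKM in Cort-/- BECs under NX/NG. Under OGD-R the sums were 81.5, 123.4 and 103.2 RPKM in Cort+/+ and 93.0 and 81.1 RPKM in Cort-/- BECs, the lowest values being those of the low-rRNA libraries. Because the authors scaled the 2 tables separately, sums were also computed on the common scale, where the NX/NG libraries had 113.8 to 126.7 RPKM in Cort+/+ and 112.6 and 129.1 RPKM in Cort-/- BECs, and the OGD-R libraries had 79.4, 119.8 and 100.6 RPKM and 90.7 and 79.0 RPKM. The environments overlapped through 1 Cort+/+ OGD-R library. Variants summed to 188.1 to 190.3 RPKM in the NX/NG libraries and to 196.5 to 230.3 RPKM in the OGD-R libraries, without overlap as deposited. On the common scale the variant means were 193.1 ± 0.545 and 195.5 ± 0.386 RPKM under NX/NG and 210.8 ± 17.3 and 200.5 ± 12.7 RPKM under OGD-R (SD, n = 3 for Cort+/+ and n = 2 for Cort-/-), and 2 OGD-R libraries, at 191.4 and 191.5 RPKM, were below every NX/NG library. Replication-dependent genes held 16.7% to 25.0% of all histone reads. Leaving out H2bc4 and H1f2, the other 58 members summed to 49.2 to 60.3 RPKM under NX/NG, to 42.8 to 61.9 RPKM in 3 OGD-R libraries and to 25.5 and 26.9 RPKM in the low-rRNA libraries.

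**Figure D1:**
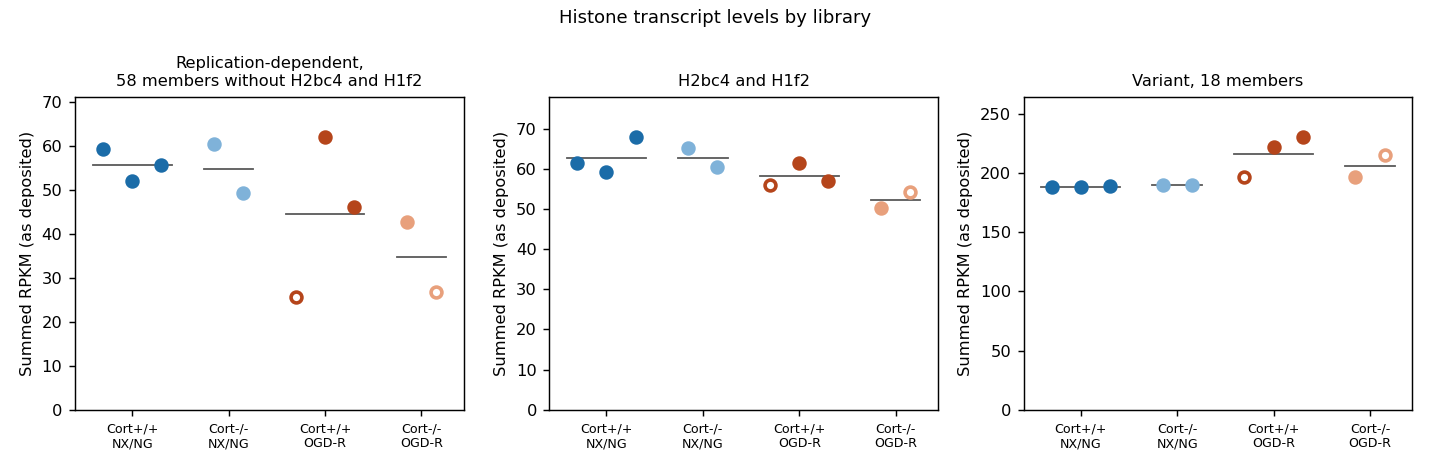
Summed RPKM as deposited (y axis, starting at 0) in each library for the 58 replication-dependent members other than H2bc4 and H1f2, for H2bc4 and H1f2, and for the 18 variants. Points are libraries, lines are group means and open circles are the low-rRNA libraries, which sit at 25.5 and 26.9 RPKM in the first panel and within or near the range of the other OGD-R libraries in the panels for H2bc4 with H1f2 and for variants.

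Among variants, H3f3b and H3f3a, which both encode H3.3, had 52.3 to 72.4 and 21.6 to 27.4 RPKM. H1f0, which encodes the linker histone of resting and differentiated cells, had 34.5 to 47.3 RPKM. The H2A.Z genes H2az1 and H2az2 had 31.1 to 47.2 and 9.97 to 14 RPKM, and H2ax, whose protein is phosphorylated at DNA breaks, had 14.2 to 21.3 RPKM. H1f10, another linker histone, had 2.13 to 4.82 RPKM, and the pseudogene H3f3a-ps1 had 1.48 to 4.29 RPKM, with reads that may come from H3f3a. The other 10 variants were not expressed by this rule.

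To ask whether loss of cortistatin changes histone transcripts in uninjured cells, Cort-/- and Cort+/+ BECs were compared under NX/NG. Histone genes lay on both sides of 0. The 19 expressed replication-dependent members had a median log2 fold change of RPKM + 0.1 of 0.03, and 8 of them were below 0, where 48.0% of all expressed genes were. The 8 expressed variants had a median of 0.03, and all expressed genes had 0.01. No member and no other gene was called at an FDR of 0.05 (limma, 0.0% of 29965 genes), nor was any member called by limma-voom on recovered reads. An unadjusted p under 0.05 was reached by 2 of 58 replication-dependent members that were lower (4.82% of all genes) and 1 that was higher (3.56%), and the count of 2 was 3 to 5 with each library left out in turn (3.72% to 6.05% of all genes). Groups did not overlap for 2 higher (16.3% of expressed genes) and 1 lower (16.6%) of the 19.

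H2az1, 1 of the H2A.Z genes, had 31.1, 34.8 and 35.1 RPKM in Cort+/+ and 38.6 and 41.4 RPKM in Cort-/- NX/NG libraries. These groups did not overlap, as held for 16.3% of expressed genes in this direction, and the log2 fold change was 0.25 (SE 0.07, adjusted p = 0.480). H3f3b was at 64.7, 58.3 and 58.0 RPKM in Cort+/+ and lower at 53.8 and 52.3 RPKM in Cort-/- libraries, again without overlap (16.6% of expressed genes in this direction), with a log2 fold change of -0.18 (SE 0.07, adjusted p = 0.566). Both differences therefore missed the threshold. Some markers of other cells differed between genotypes here. Pericyte markers summed to 19.4 to 24.4 RPKM in Cort+/+ and to 9.45 and 12.1 RPKM in Cort-/- libraries (7 of 8 genes below 0). Of the astrocyte and of the neuron markers, 6 of 7 were below 0. Fibroblast markers summed to less in Cort-/- libraries, as did microglia markers (11.8 to 12.5 RPKM against 4.57 and 5.95 RPKM). Their genes went both ways, with 5 of 9 and 3 of 8 below 0 and medians of -0.01 and 0.11. The part of these markers in the histone values was not tested. The H4 gene H4c8 was at 7.29, 6.64 and 7.38 RPKM in Cort+/+ and at 7.06 and 3.01 RPKM in Cort-/- libraries, with 1 library far below the others and a log2 fold change of -0.61 (SE 0.35, adjusted p = 0.681). Among expressed members, the lowest and highest fold changes belonged to H4c1, an H4 gene with 1 to 12 reads in these libraries (-1.51, SE 0.68), and H2bc15, an H2B gene with 1 to 7 reads (0.96, SE 0.70). H3c2, an H3 gene, followed with 0.90 (SE 1.49) and had 0 reads in 1 library against 8 to 19 in the others.

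Under OGD-R, the same comparison asks whether the genotypes differ after injury. Replication-dependent genes had a median log2 fold change of -0.18 in Cort-/- against Cort+/+ BECs, and 15 of 19 were below 0 (52.3% of expressed genes). None of 58 members tested reached an unadjusted p under 0.05 by limma, whether lower (1.71% of genes) or higher (1.72%), and no gene was called (0.0% of 29775 genes). Of the 19, H1f2 alone had groups that did not overlap, and none was higher without overlap (7.88% of expressed genes). H1f2 was at 23.8, 25.1 and 22.5 RPKM in Cort+/+ and 21.3 and 20.7 RPKM in Cort-/- libraries (8.14% of expressed genes in this direction). Its log2 fold change of -0.18 (SE 0.09) gave an adjusted p of 0.978. The variants had a median of -0.07. The replication-dependent median rested on single libraries. It was 0.02 without Cort-/- replicate 3, -0.34 without Cort+/+ replicate 1 (with 8 of 58 members then lower at an unadjusted p under 0.05, beside 2.17% of all genes in that fit) and -0.49 without Cort-/- replicate 1. Without both low-rRNA libraries it was -0.29, with 17 of 19 below 0. The variants moved the same way in that fit, with a median of -0.18 and 8 of 8 below 0, beside 7011 of 13785 expressed genes. Only 2 Cort+/+ libraries and 1 Cort-/- library were then compared. Between them, 12 of 19 replication-dependent genes and 4 of 8 variants were lower without overlap (37.1% of expressed genes).

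The comparison of OGD-R with NX/NG within a genotype asks how histone transcripts stand 20 h after the deprivation ended. It was made on the common scale. In Cort+/+ BECs, replication-dependent genes had a median log2 fold change of -0.38 and 17 of 19 were below 0 (48.5% of expressed genes), beside 0.01 for all expressed genes and 0.12 for the variants. In Cort-/- BECs the median was -0.65, again with 17 of 19 below 0 (51.7% of expressed genes), beside -0.01 for all and 0.04 for the variants. These 2 comparisons share no library. In both, 15 of 19 replication-dependent members and 0 of 8 variants were below 0, against 32.9% of 13787 expressed genes.

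No histone gene passed the FDR in either genotype. The share of all genes called was 0.0332% in Cort+/+ (9 of 27075) and 0.0% in Cort-/- BECs, where 2 libraries were set against 2. Lower members at an unadjusted p under 0.05 numbered 8 of 56 in Cort+/+ (2.48% of genes) and 13 of 56 in Cort-/- BECs (1.87%), while 0 and 1 were higher (3.01% and 2.21%). The 1 higher member, H4c18, had at most 3 reads in any library and was named after its value was seen. Groups did not overlap for 7 of 19 lower members in Cort+/+ (5.2% of expressed genes) and for 13 of 19 in Cort-/- BECs (18.0%). Leaving out a library cannot lower these counts. Without the low-rRNA library of each genotype the medians were -0.20 and -0.43, with 11 and 15 of 19 below 0, 7 and 6 members at an unadjusted p under 0.05 (3.06% and 3.1% of genes), and 7 and 13 of 19 not overlapping (11.6% and 35.2%). The count of 13 members at an unadjusted p under 0.05 in Cort-/- BECs also depended on NX/NG replicate 1, without which it was 2 (2.81% of all genes). In Cort+/+ BECs the count of 8 became 13 without OGD-R replicate 2 (2.26% of all genes) and 5 without NX/NG replicate 1 or 2 (2.04% in either fit).

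The interaction of genotype and environment tests whether these responses differ. No member was called (0.011% of 27321 genes were, limma), and none reached an unadjusted p under 0.05, lower (1.17% of genes) or higher (1.69%). Without Cort+/+ OGD-R replicate 1, 8 of 56 replication-dependent members did so in the lower direction (1.82% of all genes in that fit). Without Cort-/- OGD-R replicate 1, 4 did (2.05%), and without both low-rRNA libraries, 4 did (2.47%). The replication-dependent median was -0.17 with 13 of 19 below 0 (54.2% of expressed genes), and it was 0.09 without Cort-/- OGD-R replicate 3, 0.00 without Cort+/+ OGD-R replicate 2 and -0.47 without Cort+/+ OGD-R replicate 1. The widest estimates belonged to genes of few reads, H2bc15 at -2.95 (SE 1.57) and H4c1 at 0.90 (SE 0.99).

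**Figure D2:**
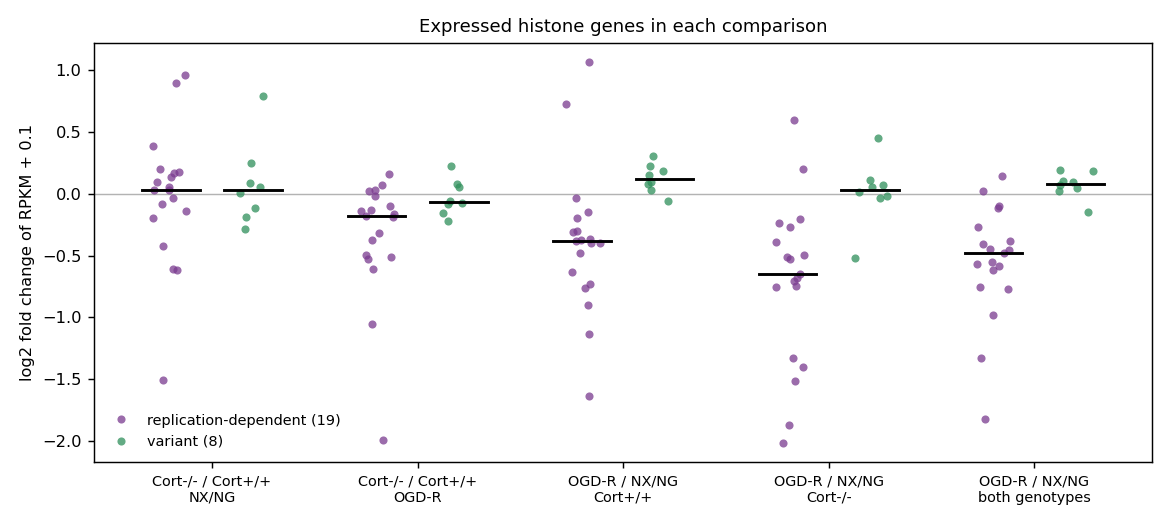
Log2 fold change of RPKM + 0.1 (y axis) for each of the 19 expressed replication-dependent and 8 expressed variant members in 4 comparisons and in OGD-R against NX/NG over both genotypes. Points are genes and lines are medians, which for replication-dependent genes are 0.03, -0.18, -0.38, -0.65 and -0.48 from left to right and for variants 0.03, -0.07, 0.12, 0.04 and 0.08.

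Taking both genotypes with equal weight in 1 comparison, which was added after the data were seen, replication-dependent genes had a median log2 fold change of -0.48 under OGD-R and 17 of 19 were below 0 (49.7% of expressed genes). Most genes of every family were below 0, with 2 of 2 H1, 2 of 2 H2A, 6 of 6 H2B, 2 of 3 H3 and 5 of 6 H4 genes below 0. No member was called (0.022% of 27321 genes were, 6 genes). An unadjusted p under 0.05 was reached by 13 of 56 lower (3.61% of genes) and 0 higher members (3.73%). Variants had a median of 0.08, and 7 of 8 were above 0. Without the low-rRNA libraries the replication-dependent median was -0.18 and 11 of 56 members were lower at an unadjusted p under 0.05 (3.37% of all genes in that fit), and with a term for those libraries the median was -0.20. The count of 13 over all libraries was 8 without Cort-/- NX/NG replicate 1 (2.55% of all genes) and 21 without Cort+/+ OGD-R replicate 2 (3.6%). Smooth muscle markers moved with the environment too, with a median of -0.25 and 6 of 7 below 0 in this comparison, and their part in the histone values was not tested.

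All 5 OGD-R libraries were below all 5 NX/NG libraries for 6 of 19 replication-dependent genes, namely H1f2, H2ac4, H2bc21, H3c15, H4c6 and H4c9, and for 0 of 8 variants. The share among all expressed genes was 0.994%. Leaving out the low-rRNA libraries cannot break this order, so the same 6 genes necessarily kept it, and no other joined them (2.44% of expressed genes). The variant H1f0 was then higher in all 3 OGD-R libraries than in all NX/NG libraries (2.78% of expressed genes). The 6 genes cover every family, 5 of them hold the stem-loop printed above, and transcripts of 3 of these 5 run more than 100 bases past it.

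H1f2, the most abundant H1 transcript among the replication-dependent genes, had common-scale levels of 30.5, 27.0 and 33.0 RPKM in Cort+/+ and 30.7 and 28.4 RPKM in Cort-/- BECs under NX/NG. Under OGD-R it had 23.1, 24.4 and 22.0 RPKM in Cort+/+ and 20.8 and 20.2 RPKM in Cort-/- BECs. The environments did not overlap, with group means of 30.2 ± 3.00, 29.5 ± 1.65, 23.2 ± 1.23 and 20.5 ± 0.414 RPKM (SD, n = 3, 2, 3 and 2), and the low-rRNA libraries were at 23.1 RPKM, between the other Cort+/+ OGD-R libraries, and at 20.2 RPKM, the lowest of all 10. Its log2 fold change was -0.45 (SE 0.06, adjusted p = 0.193) over both genotypes, the lowest adjusted p of any histone gene. It was -0.38 (adjusted p = 0.786) in Cort+/+ and -0.52 (adjusted p = 0.623) in Cort-/- BECs, -0.45 by limma-voom (adjusted p = 0.0525) and -0.44 without the low-rRNA libraries (adjusted p = 0.439). With 390 to 578 reads per library, this member is the best measured of the 6, and its difference still missed the threshold in every fit.

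H4c9, a core H4 gene, had 28 to 49 reads per library. Its levels were 5.29, 5.25 and 4.65 RPKM in Cort+/+ and 4.92 and 4.68 RPKM in Cort-/- BECs under NX/NG, and 4.20, 4.47 and 3.14 RPKM and 3.54 and 3.73 RPKM under OGD-R. All OGD-R values were lower, the closest pair being 4.47 and 4.65 RPKM, and the log2 fold change was -0.38 (SE 0.10, adjusted p = 0.499).

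H3c15, a core H3 gene, was at 1.88, 1.76 and 2.27 RPKM and at 1.96 and 2.07 RPKM under NX/NG, and at 1.04, 1.63 and 1.52 RPKM and at 1.30 and 1.19 RPKM under OGD-R. Its lowest value came from a low-rRNA library. The log2 fold change was -0.57 (SE 0.15, adjusted p = 0.469) and -0.44 without the low-rRNA libraries.

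H2bc21, a core H2B gene with 47 to 75 reads, was at 2.17, 2.11 and 2.11 RPKM and at 2.26 and 2.32 RPKM under NX/NG, and at 1.62, 1.57 and 1.96 RPKM and at 1.97 and 1.88 RPKM under OGD-R. The NX/NG values were tightly grouped, and the log2 fold change was -0.27 (SE 0.09, adjusted p = 0.606).

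H2ac4, a core H2A gene, had 4 to 12 reads per library. Its levels were 2.12, 1.98 and 1.32 RPKM and 1.23 and 1.37 RPKM under NX/NG, and 1.20, 0.742 and 1.21 RPKM and 0.878 and 0.906 RPKM under OGD-R, with a log2 fold change of -0.61 (SE 0.19, adjusted p = 0.564). The groups of the 2 environments almost touched at 1.21 and 1.23 RPKM.

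H4c6, a core H4 gene whose annotated transcript ends soon after the stem-loop, had 0 to 10 reads. It was at 1.50, 1.39 and 1.59 RPKM and at 2.13 and 1.86 RPKM under NX/NG, and at 0, 1.35 and 0.834 RPKM and at 0.850 and 0.183 RPKM under OGD-R, where the 0 and the 0.183 are the low-rRNA libraries. Its log2 fold change of -1.82 (SE 0.72, adjusted p = 0.656) became -0.80 without those libraries.

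**Figure D3:**
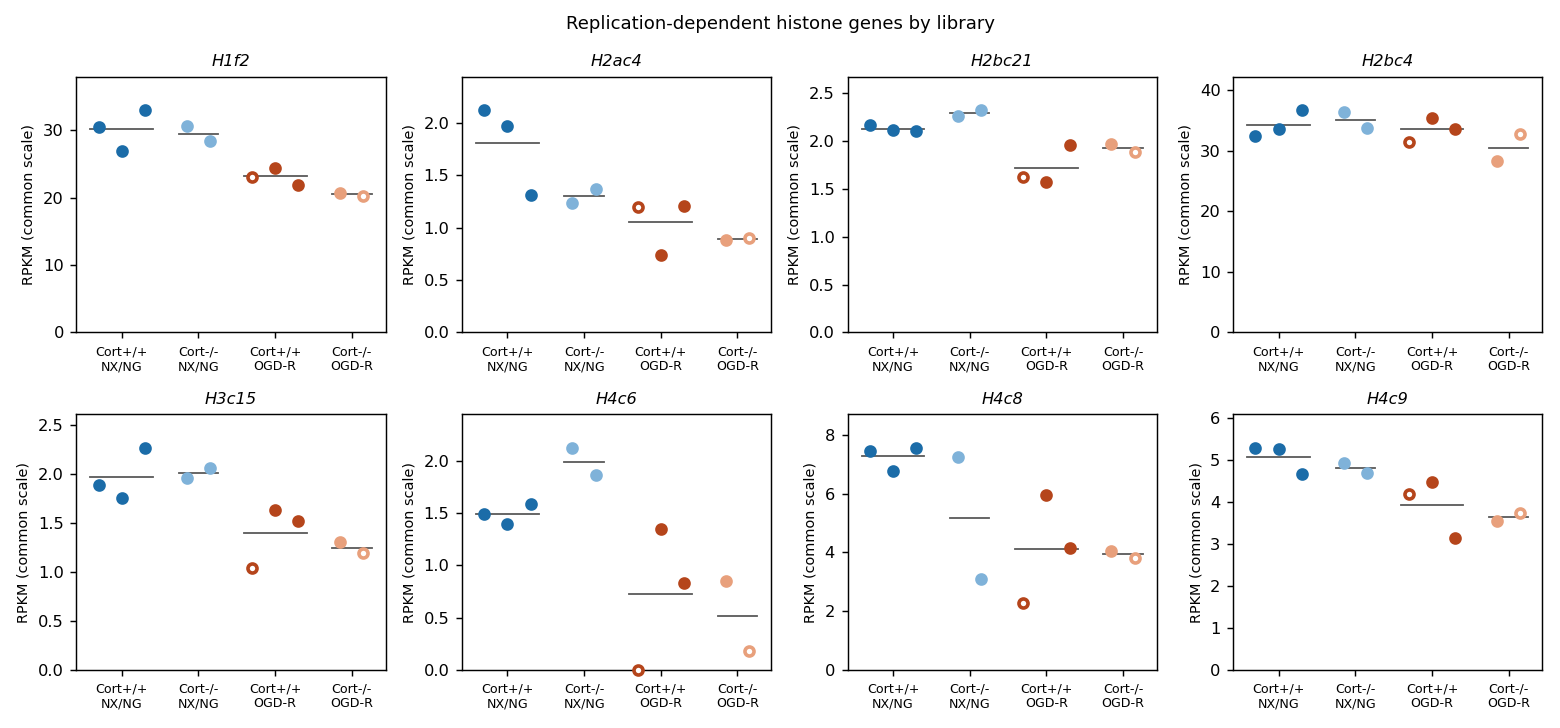
Common-scale RPKM (y axes, starting at 0) of 8 replication-dependent genes in each library. Points are libraries, lines are group means and open circles are the low-rRNA libraries. In H1f2, H2ac4, H2bc21, H3c15, H4c6 and H4c9 every OGD-R library lies below every NX/NG library, whereas the environments overlap in H2bc4 and H4c8.

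H2bc4 was expressed at a level close to that of H1f2. Its common-scale levels of 32.4, 33.6, 36.6, 36.4 and 33.8 RPKM under NX/NG overlapped those of 31.4, 35.5, 33.6, 28.2 and 32.7 RPKM under OGD-R (Cort+/+ first in both), and its log2 fold change was -0.12 (SE 0.06, adjusted p = 0.736). The difference between the genes was not tested. H4c8 was at 7.47, 6.79, 7.57, 7.26 and 3.10 RPKM under NX/NG and at 2.26, 5.97, 4.16, 4.07 and 3.80 RPKM under OGD-R, so the environments overlapped through 1 Cort-/- NX/NG library, and the log2 fold change was -0.59 (SE 0.29, adjusted p = 0.707).

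The remaining expressed replication-dependent genes had wide errors. H4c4 was at -0.98 (SE 0.49), H2bc3 at -0.77 (SE 0.44), H2bc8 at -0.75 (SE 0.35), H2bc18 at -1.33 (SE 0.97), H3c14 at -0.44 (SE 0.35), H2bc15 at -0.40 (SE 0.78) and H4c12 at -0.10 (SE 0.32) on the log2 scale. H3c2 and H4c1 were the 2 above 0, at 0.02 (SE 0.84) and 0.14 (SE 0.49). H1f4 (-0.48, SE 0.29) and H2ac6 (-0.55, SE 0.23), named to complete the 19, lay near the median. Their adjusted p-values were 0.675 or more.

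Over all libraries of both genotypes, variants did not share this direction, with 7 of 8 above 0. Without the low-rRNA library, which leaves 1 Cort-/- OGD-R library, 5 of 8 variants were below 0 in Cort-/- BECs, with a median of -0.09. As many, 5 of 8, were then lower without overlap (35.2% of expressed genes). In Cort+/+ BECs without their low-rRNA library, 1 of 8 was below 0, with a median of 0.21. H2az2, the less abundant H2A.Z gene, was at 10.4 RPKM in each Cort+/+ and at 10.7 and 10.3 RPKM in the Cort-/- NX/NG libraries on the common scale. Under OGD-R it was at 12.3, 13.6 and 12.7 RPKM in Cort+/+ and at 9.77 and 12.5 RPKM in Cort-/- BECs. In Cort+/+ BECs the groups did not overlap (7.68% of expressed genes in this direction), with a log2 fold change of 0.30 (SE 0.06, adjusted p = 0.671), while in Cort-/- BECs they did and it was 0.07 (SE 0.15). Over both genotypes H3f3b (0.10, SE 0.07), H1f0 (0.10, SE 0.07), H2az1 (0.07, SE 0.09), H3f3a (0.05, SE 0.07), H2ax (0.02, SE 0.14) and H1f10 (0.20, SE 0.18) were at or slightly above 0, and H3f3a-ps1 was at -0.15 (SE 0.29). H2ax, whose annotated transcript holds the stem-loop and runs 822 bases past it, had common-scale levels of 14.6 to 19.9 RPKM under NX/NG and 14.7 to 20.8 RPKM under OGD-R.

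Within OGD-R, the low-rRNA libraries differed from the other 3 in replication-dependent genes. Both low-rRNA libraries were below all 3 others for 12 of 19 expressed replication-dependent genes and above them for 0, whereas 16.2% of all expressed genes were below and 14.2% above. Among the 8 variants, 2 were below and 0 above. The ratio of the mean RPKM in the low-rRNA libraries to that in the others had a median of 0.471 over the 19 replication-dependent genes, 0.969 over the variants and 1.00 over all expressed genes. These 2 libraries are 1 of each genotype, and they were grouped by their ribosomal RNA content, not by the labels.

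Members differed widely in this ratio. H2bc18 had 0 and 0.192 RPKM in the low-rRNA libraries against 2.60, 2.20 and 1.12 RPKM in the others, a ratio of 0.0488. H4c6 followed at 0.0896, H2bc15 at 0.152, H4c4 at 0.214 and H2bc3 at 0.244. H3c14, an H3 gene with 25 to 75 reads per library, was at 1.20 and 1.00 RPKM against 2.71, 2.80 and 2.71 RPKM. In contrast, the ratio was 0.968 for H1f2, 0.988 for H2bc4, 0.956 for H2bc21, 1.07 for H4c9, 1.12 for H2ac4 and 1.26 for H3c2, so that 4 of the 6 genes that were low throughout OGD-R had ratios between 0.956 and 1.12. By family, the ratio of summed RPKM was 0.912 for H1, 0.794 for H2A, 0.815 for H2B, 0.491 for H3 and 0.563 for H4.

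**Figure D4:**
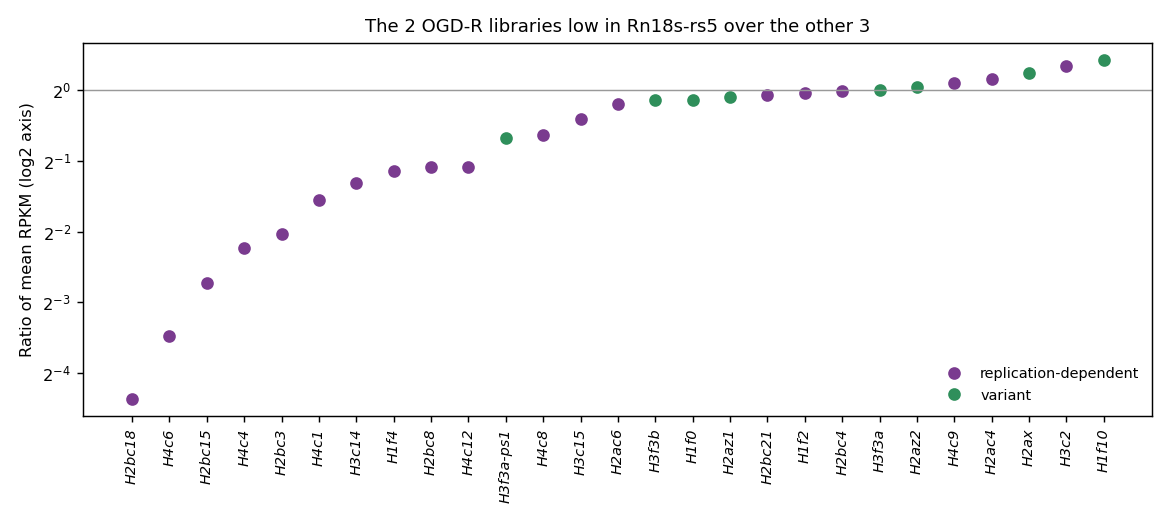
Ratio of mean deposited RPKM in the 2 low-rRNA OGD-R libraries to that in the other 3 OGD-R libraries (y axis, log2 scale) for each expressed histone gene, in rising order. Replication-dependent genes span 0.0488 to 1.26 with a median of 0.471, and variants span 0.626 to 1.34 with a median of 0.969.

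The ratio was also summed by the annotated end of the transcript, and whether that end separates these members was not tested. Of the 19 members without a match, 9 were annotated no further than the stop codon. The summed ratio was 0.509 for the 21 members whose transcripts with the stem-loop were all short. It was 0.834 for the 19 with a transcript extending past the stem-loop, but 0.664 for these without H1f2. It was 0.798 for the 19 without a match and 0.354 for them without H2bc4. Replication-dependent members with at least 1 read numbered 38 and 42 in the low-rRNA libraries and 49 to 56 in the others. Under OGD-R against NX/NG over both genotypes, the 19 transcripts without a poly(A) tail that were in both tables (Rn18s-rs5 included) had a median log2 fold change of -2.04, and of -0.33 without the low-rRNA libraries. Over all libraries Rn7s1 was at -2.38 (SE 0.88), Snord118 at -3.12 (SE 1.41) and Rn18s-rs5 at -2.88 (SE 2.39). The low level of other transcripts that lack a poly(A) tail moved with these values, and its part in them was not tested.

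Genes that make and handle histones were described beside them, from lists chosen with earlier results of these data known, and none of their genes was called in any comparison. Of 19 genes for histone mRNA transcription and 3′ processing, the median log2 fold change was -0.01 over both genotypes under OGD-R and 0.04 between genotypes under NX/NG. Slbp, which binds the stem-loop, was at 3.44 to 4.12 RPKM under NX/NG and 3.65 to 4.61 RPKM under OGD-R, with a log2 fold change of -0.03 (SE 0.09). Npat, the coactivator of replication-dependent histone transcription, was at 5.87 to 6.44 and 5.64 to 6.64 RPKM, with -0.07 (SE 0.06). The lowest p-values in that list over both genotypes belonged to Srrt (0.18, SE 0.05, adjusted p = 0.469) and Cpsf3, an endonuclease of 3′ processing (0.17, SE 0.06, adjusted p = 0.598). For 32 histone chaperones and deposition factors the median was 0.03, and it was led by the centromeric chaperone Hjurp (0.19, SE 0.07, adjusted p = 0.606) and by Vps72, which handles H2A.Z (0.22, SE 0.08, adjusted p = 0.632).

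Cell cycle genes did not run in the direction of the replication-dependent histones. The 33 genes of DNA replication and S phase had a median log2 fold change of 0.06 under OGD-R over both genotypes with 25 above 0, led by Fen1 (0.17, SE 0.06, adjusted p = 0.606) and Tk1 (0.27, SE 0.10, adjusted p = 0.606). Pcna, the replication clamp, was at 0.11 (SE 0.08) and the helicase subunit Mcm2 at -0.07 (SE 0.07). The 24 genes of G2 and mitosis had a median of 0.21 and all 24 were above 0, with 15 at an unadjusted p under 0.05 (3.73% of genes). Nusap1 (0.38, SE 0.07, adjusted p = 0.294) and cyclin A2, Ccna2 (0.18, SE 0.04, adjusted p = 0.383), led them. Top2a had 14.3 to 18.4 RPKM under NX/NG and 18.3 to 23.8 RPKM under OGD-R (0.30, SE 0.07, adjusted p = 0.418), and Mki67, a proliferation marker, had 12.5 to 16.2 and 12.4 to 21.3 RPKM (0.21, SE 0.11, adjusted p = 0.735). The low-rRNA libraries were not low in these lists, with S phase sums of 294 and 343 RPKM against 293 to 314 RPKM in the other OGD-R libraries, and G2 and mitosis sums of 281 and 311 RPKM against 240 to 278 RPKM.

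Between genotypes under NX/NG the same lists had medians above 0 for Cort-/- BECs. The S phase list had a median of 0.17 with 8 of 33 at an unadjusted p under 0.05, led by Fen1 (0.42, SE 0.07, adjusted p = 0.251) and Pola1 (0.51, SE 0.11, adjusted p = 0.351). The G2 and mitosis list had a median of 0.22 with 13 of 24, led by Cdk1 (0.26, SE 0.06, adjusted p = 0.391) and Cenpe (0.24, SE 0.06, adjusted p = 0.410). In the list of histone mRNA processing, the lowest p-values belonged to Ncbp2, a subunit of the cap-binding complex (-0.24, SE 0.07, adjusted p = 0.459), and Cpsf2 (0.13, SE 0.05, adjusted p = 0.627), and among chaperones to Npm3 (-0.36, SE 0.08, adjusted p = 0.358) and Chaf1b, a subunit of chromatin assembly factor 1 (0.25, SE 0.09, adjusted p = 0.541). The background of higher genes at that p was 3.56%, and no difference between these lists and the histone genes was tested.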

How the data were processed

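RNA-seq of BEC cultures was analysed from the deposited tables. The authors, who used their reanalyzerGSE pipeline (edgeR is named in the submitters' processing notes), deposited RPKM per gene and library in 1 table for each environment. The aligner, counter and genome build are not given in the sources used here. Columns of the authors' fold changes, p-values and FDR, their tables of called genes and 10 per-library expression category columns were not used.

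Reads per gene were recovered from RPKM times gene length and lay within 0.05 of a whole number for at least 99.9958% of values. Within a table, log2(RPKM + 0.1) of genes with a value above 0 was fitted in R 4.3.3 by limma 3.58.1 with trended empirical Bayes variances and two-sided tests, over the groups compared, with Benjamini-Hochberg adjustment over all genes, and an FDR of at most 0.05 was a call. For comparisons between environments, the 27321 genes in both tables were joined, scaled by a trimmed mean of M values computed with own code (factors 0.907 to 1.14), and RPKM was computed anew. Over both genotypes, the mean of both contrasts was taken from a fit of all groups. The fits were run on simulated data with the same dispersion for every gene, no outlying library and changes only in well-counted genes. That setting is simpler than these data, so it does not show how the fits perform on them. P-values set a group difference against the variance between these samples, moderated across all genes. No 2 libraries of a group agreed within sampling noise.

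Members, lists and tests were chosen with earlier results of these data known. Named were the 12 replication-dependent and 8 variant members highest in Cort+/+ NX/NG, the 3 highest and 3 lowest expressed members per comparison, any called member, 7 fixed genes and the 2 genes of lowest p per list. Transcripts came from GENCODE vM21 (GRCm38), with older symbols from RefSeq. Alternatives were a pseudocount of 1, at least 1 RPKM in 2 libraries, quantile normalization, no composition factor, Rn18s-rs5 left out of totals, limma-voom, a replicate block, all groups in one fit, each replicate left out and the low-rRNA libraries left out or given a term. Leaving out pseudogenes and the antisense gene, or H2bc4 and H1f2, and the comparison over both genotypes were chosen after seeing the data. Cort-/- samples 3 (NX/NG) and 2 (OGD-R) were not analysed here.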

Additional observations from a re-analysis of the deposited data

How the results depend on the processing

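No histone gene was called under any alternative, except that H2af-ps2 and H1f9, with at most 1 and 2 reads in any library, made the count 1 without Cort-/- NX/NG replicate 1 and 1 without replicate 2 (range 0 to 1), each fit then having a lone Cort-/- library that is assumed to vary like the others. With each replicate left out in turn, the median log2 fold change of replication-dependent genes ranged from -0.02 to 0.10 between genotypes under NX/NG, -0.49 to 0.02 under OGD-R, -0.55 to -0.20 for OGD-R in Cort+/+, -0.68 to -0.43 in Cort-/-, -0.47 to 0.09 for the interaction and -0.60 to -0.40 over both genotypes. Scaled to reads other than Rn18s-rs5, summed means under NX/NG moved from 118.5 to 133.8 (Cort+/+) and 117.6 to 131.1 RPKM (Cort-/-) for replication-dependent genes and from 188.5 to 212.9 and 190.1 to 212.0 RPKM for variants, and the variant mean of Cort-/- under OGD-R moved from 205.8 to 221.5 RPKM. Calls over all genes, 0, 0, 9, 0, 3 and 6 in that order of comparisons, ranged over 0 to 683, 0 to 710, 0 to 9, 0, 0 to 8 and 0 to 16, the 683 and 710 calls of the first 2 coming with 1 Cort-/- library left, while limma-voom gave 54, 1 and, over both genotypes, 16. The 9 calls in Cort+/+ became 0 with any replicate left out. Of 2295 refits of named members, 0 changed a call and 183 changed sign.

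Whether equal replicate numbers mark paired libraries is not settled here. Deviations from the group means correlated from -0.53 to 0.19 for equal numbers. In the Cort-/- groups of 2 libraries the deviations mirror each other, so each value recurs with the opposite sign and cannot decide this. With the replicate block, 0 members were called and the replication-dependent medians were 0.07, -0.08, -0.38, -0.18 (interaction) and -0.47 (both genotypes). The block could not be fitted for OGD-R against NX/NG in Cort-/-, where only 1 number is shared.

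Depth limits most members, since 44 of 78 had at most 10 reads in every library. Groups held 2 or 3 libraries.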
